A study of Mus musculus with 4 samples.

Results

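Apoptosis and survival genes of the BCL2 and death receptor pathways were followed in mouse lung endothelium. The members were Bcl2l1, Bcl2, Mcl1, Bax, Bak1, Bbc3, Bcl2l11, Fas and Casp8, which are 9 of the 32285 genes in the deposited matrices, and all 9 were found by symbol. They were chosen by their UMI levels per library and per endothelial class, so those levels are a description here and carry no test. A UMI is a unique molecular identifier and stands for 1 counted transcript molecule, and CPM is UMIs per 1000000 UMIs of the same cells. Endothelial cells were those with at least 500 genes detected, at most 10% mitochondrial UMIs, at least 2 UMIs summed over Pecam1, Cdh5, Cldn5, Egfl7, Ramp2 and Tie1, and 0 UMIs of Ptprc, Epcam, Col1a1 and Col1a2.

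The 4 groups were M3cKO PNX and Foxo1cKO PNX, both conditional knockouts taken 7 days after the operation, WT PNX, wild-type mice taken at the same time, and sham, wild-type mice after a sham operation. PNX usually stands for pneumonectomy, in which lung tissue is removed and the lung that is left grows. Lung cells were freed with collagenase, depleted of CD45-positive cells, which are leukocytes, and enriched for CD31, the product of the endothelial gene Pecam1. Each group was 1 library, so no spread between animals was measured, no test between groups was possible, and every interval below is a 95% interval of counting error only. The sources used here do not give what gene M3 stands for, which Cre line was used or how many mice each library pooled.

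Apoptosis through mitochondria is held back by anti-apoptotic BCL2 family proteins and is carried out by BAX and BAK, which open the outer mitochondrial membrane. BH3-only proteins such as BIM and PUMA tip this balance, and death receptors such as FAS start a separate route through caspase 8. In endothelium the same proteins set how long vessel cells survive, and regrowth and regression of vessels are both known to depend on them.

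FOXO factors are known activators of Bcl2l11 and Bbc3, and one of the libraries is a Foxo1 knockout, so the 250 bases before each annotated start of the members were searched. The sequences are from RefSeq, build GRCm38.p6, and hold 14 windows for the 9 genes. The letters GTAAACA, a FOXO element, were looked for on both strands and stood in 1040 of 32851 such windows of all genes, or 3.17%. One of the 2 windows of Bcl2l11 and one of the 3 windows of Bbc3 held them, and no window of the other 7 members did. A STAT element, TTCNNNGAA, which 7.02% of all windows hold, was present in the window of Fas, and a heat shock element, read as GAA, any 2 bases, TTC, any 2 bases and GAA, which 0.466% hold, in none. None of the 3 windows of Bcl2l1 held any of the 3 motifs, which says only that these letters are not there. The windows with the FOXO element are shown because Foxo1 is the gene deleted, and the most upstream window of Bcl2l1 because Bcl2l1 differed most between libraries. Each is printed from 5′ to 3′ in the direction of transcription, and the capitals mark the FOXO element.
Bcl2l11 window, chr2:128125788-128126037, plus strand: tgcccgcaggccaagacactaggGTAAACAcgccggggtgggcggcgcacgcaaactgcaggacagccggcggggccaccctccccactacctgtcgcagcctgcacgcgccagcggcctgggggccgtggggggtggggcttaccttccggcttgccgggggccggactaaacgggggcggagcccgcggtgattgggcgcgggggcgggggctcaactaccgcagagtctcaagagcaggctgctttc
Bbc3 window, chr7:16310011-16310260, plus strand: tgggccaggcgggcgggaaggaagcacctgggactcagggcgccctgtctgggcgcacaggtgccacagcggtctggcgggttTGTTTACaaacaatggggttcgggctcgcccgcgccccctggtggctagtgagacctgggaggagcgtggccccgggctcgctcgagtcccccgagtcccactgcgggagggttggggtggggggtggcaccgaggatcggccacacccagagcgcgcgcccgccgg
Bcl2l1 window, chr2:152831729-152831978, minus strand: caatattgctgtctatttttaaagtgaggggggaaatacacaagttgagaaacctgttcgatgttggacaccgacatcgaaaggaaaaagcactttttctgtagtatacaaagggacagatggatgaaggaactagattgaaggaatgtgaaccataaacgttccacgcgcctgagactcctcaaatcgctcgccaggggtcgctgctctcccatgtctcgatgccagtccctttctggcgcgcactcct
In the Bcl2l11 window the element starts 227 bases before the end of the window, which is the base before the annotated start, and in the Bbc3 window it starts 167 bases before it and lies on the opposite strand.

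The libraries held 26848160 UMIs in 9080 barcodes in M3cKO PNX, 27320974 in 8720 in Foxo1cKO PNX, 30445999 in 9266 in WT PNX and 16197681 in 7617 in sham. The endothelial rule kept 2491, 3811, 3887 and 4665 cells in the same order, with 6492399, 12346381, 13691550 and 10493693 UMIs. Median depth was 2070, 2474, 2640 and 1841 UMIs per cell. Between 68 and 111 barcodes were shared by any pair of libraries, of which 11 to 28 were endothelial in both. Xist was seen in 0 endothelial cells of M3cKO PNX and sham, against 25.3% of those of Foxo1cKO PNX and 25.0% of those of WT PNX, while Y-linked genes were seen in 15.9% to 30.6% of cells in all 4. M3cKO PNX and sham thus held transcripts of male cells, and Foxo1cKO PNX and WT PNX those of both sexes, so for the genes that differed most the ratio of M3cKO PNX over sham is given beside the main comparisons. M3cKO PNX and sham differ in both genotype and operation, and the parts of each in that ratio cannot be told apart. Foxo1 stood at 70.1 CPM in Foxo1cKO PNX endothelium, against 208 CPM in WT PNX, a ratio of 0.337 (0.312 to 0.364), and at 185 CPM in M3cKO PNX and 196 CPM in sham.

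Among the anti-apoptotic members, Bcl2l1 differed most between M3cKO PNX, WT PNX and sham. Bcl2l1 encodes BCL-XL (ENSMUSG00000007659, GRCm38 chromosome 2, 152780668 to 152831728, minus strand). Bcl2l1 stood at 206 CPM in M3cKO PNX (1339 UMIs, interval 195 to 218), 82.9 CPM in Foxo1cKO PNX (1024 UMIs, 77.9 to 88.2), 61.8 CPM in WT PNX (846 UMIs, 57.7 to 66.1) and 119 CPM in sham (1244 UMIs, 112 to 125). M3cKO PNX was the highest library and WT PNX the lowest, and no 2 of the intervals overlapped. The ratio of WT PNX over sham was 0.521 (0.477 to 0.569), and that of M3cKO PNX over WT PNX was 3.34 (3.06 to 3.64). Foxo1cKO PNX stood 1.34 times as high as WT PNX (1.22 to 1.47), and at 0.700 times sham (0.643 to 0.761). Within the pair of male libraries, Bcl2l1 was 1.74 times as high in M3cKO PNX as in sham (1.61 to 1.88). The counts do not separate splice forms of the gene.

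Mcl1, a short-lived anti-apoptotic protein's gene, was the most abundant member by UMIs in each library. Its level was 422 CPM in M3cKO PNX, 296 CPM in Foxo1cKO PNX, 312 CPM in WT PNX and 359 CPM in sham. M3cKO PNX was again highest, but by less, at 1.36 times WT PNX (1.29 to 1.42), while M3cKO PNX over sham was 1.18 (1.12 to 1.24) and WT PNX over sham 0.868 (0.830 to 0.907). The Mcl1 log2 ratio of WT PNX over sham, −0.20, became −0.02 in cells with at most 5% mitochondrial UMIs. Bcl2, the founding anti-apoptotic gene of the family, had 30.2 CPM in M3cKO PNX, 40.7 CPM in Foxo1cKO PNX, 37.8 CPM in WT PNX and 30.0 CPM in sham. M3cKO PNX and sham were lowest and nearly equal, with M3cKO PNX at 0.799 times WT PNX (0.675 to 0.944), M3cKO PNX at 1.01 times sham (0.837 to 1.21) and WT PNX at 1.26 times sham (1.09 to 1.45). Among male-type cells, with Y-linked UMIs but none of Xist, the Bcl2 log2 ratio was 0.05 for M3cKO PNX over WT PNX and −0.08 for WT PNX over sham, so neither direction held there.

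The pore-forming members stayed within 1.5-fold between libraries over all endothelial cells. Bax had 65.9 CPM in M3cKO PNX, 80.1 CPM in Foxo1cKO PNX, 71.1 CPM in WT PNX and 60.0 CPM in sham. Bak1 had 60.1 CPM, 53.5 CPM, 57.3 CPM and 52.2 CPM in the same order. For Bak1 the intervals of all 3 main ratios included 1, and for Bax that of M3cKO PNX over WT PNX did (0.825 to 1.04). Bax was 1.18 times as high in WT PNX as in sham (1.07 to 1.31) and 1.13 times as high in Foxo1cKO PNX as in WT PNX (1.03 to 1.23). The Bax log2 ratio of WT PNX over sham, 0.24, became 0.05 in cells with at most 5% mitochondrial UMIs. In single classes Bak1 differed more, and in opposite directions. In Ntrk2 Gja4 capillary cells it had 97.7 CPM in M3cKO PNX (26 UMIs), 48.6 CPM in Foxo1cKO PNX (64 UMIs), 61.7 CPM in WT PNX (82 UMIs) and 32.8 CPM in sham (27 UMIs), with WT PNX at 1.88 times sham (1.21 to 3.02) and M3cKO PNX at 2.98 times sham (1.67 to 5.31). In aerocytes WT PNX stood at 0.796 times sham (0.633 to 0.998).

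The BH3-only members were Bcl2l11 and Bbc3. Whether the FOXO element in their windows bears on the levels below was not tested. Bcl2l11, which encodes BIM, had 48.4 CPM in M3cKO PNX, 42.0 CPM in Foxo1cKO PNX, 43.2 CPM in WT PNX and 46.9 CPM in sham. Its ratio of Foxo1cKO PNX over WT PNX was 0.972 (0.862 to 1.10). Bbc3, which encodes PUMA, had 5.08 CPM in M3cKO PNX (33 UMIs), 8.10 CPM in Foxo1cKO PNX (100 UMIs), 5.26 CPM in WT PNX (72 UMIs) and 8.58 CPM in sham (90 UMIs). It stayed under 10 CPM in every library, which is the minimum used for counting, and its ratio of Foxo1cKO PNX over WT PNX was 1.54 (1.13 to 2.12). That of WT PNX over sham was 0.613 (0.443 to 0.845), a log2 ratio of −0.71, which became −0.03 in cells with at most 5% mitochondrial UMIs.

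On the death receptor side, Fas and Casp8 moved in opposite directions in M3cKO PNX. Fas, the receptor of FAS ligand, had 215 CPM in M3cKO PNX (1394 UMIs), 93.8 CPM in Foxo1cKO PNX (1158 UMIs), 99.7 CPM in WT PNX (1365 UMIs) and 155 CPM in sham (1623 UMIs). M3cKO PNX was highest and sham second, and the intervals of Foxo1cKO PNX and WT PNX overlapped. The ratio was 2.15 (2.00 to 2.32) for M3cKO PNX over WT PNX, 0.645 (0.599 to 0.693) for WT PNX over sham and 0.941 (0.869 to 1.02) for Foxo1cKO PNX over WT PNX. Within the male libraries, Fas was 1.39 times as high in M3cKO PNX as in sham (1.29 to 1.49). Casp8, the initiator caspase that FAS recruits, had 61.1 CPM in M3cKO PNX, 84.0 CPM in Foxo1cKO PNX, 89.2 CPM in WT PNX and 77.0 CPM in sham. M3cKO PNX was the lowest library, at 0.686 times WT PNX (0.611 to 0.769), just short of the 1.5-fold used for counting, and at 0.794 times sham (0.702 to 0.897).

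**Figure D1:**
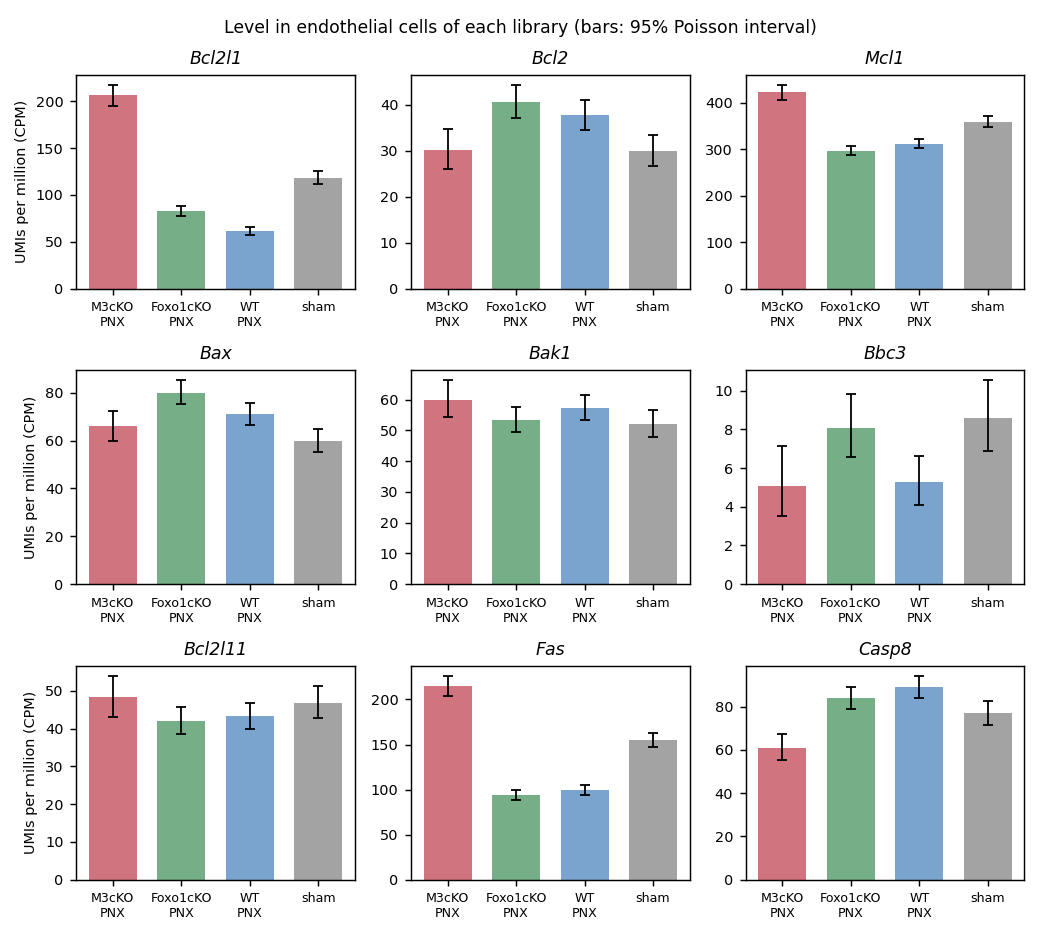
Level of each of the 9 genes in endothelial cells of the 4 libraries, in CPM (vertical axis from 0). Bars are single libraries and whiskers 95% Poisson intervals; Bcl2l1 reached 206 CPM and Fas 215 CPM in M3cKO PNX, while Bcl2l11 lay between 42.0 and 48.4 CPM in all 4.

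A gene was counted as higher or lower when its levels were at least 1.5-fold apart and the higher one reached 10 CPM, which 8 of the 9 members did. In WT PNX against sham, 0 members were higher, with 11.3% of 9132 genes as background, and 2 were lower, Bcl2l1 and Fas, with 6.98% as background. In M3cKO PNX against WT PNX, 2 members were higher, again Bcl2l1 and Fas, with 6.37% of 9089 genes as background, and 0 were lower, with 14.4%. In Foxo1cKO PNX against WT PNX, 0 members were higher and 0 lower, with 1.09% and 1.39% of 9052 genes as background. The Fas call in WT PNX against sham was lost under 4 alternatives, among them weighting the classes to the shares of WT PNX, where the log2 ratio was −0.42 in place of −0.63. All 3 comparisons share the WT PNX library, so its values enter each of them, and the members were chosen with these ratios in view. Against sham, M3cKO PNX had 1 member higher, Bcl2l1, with 7.96% of 8933 genes as background, and 0 lower, with 11.6%. Foxo1cKO PNX had 0 members higher than sham, with 10.4% of 9110 genes as background, and 1 lower, Fas, with 6.97%. The median log2 ratio of the 8 members was 0.01, 0.12 and −0.06 in WT PNX over sham, M3cKO PNX over WT PNX and Foxo1cKO PNX over WT PNX, beside 0.05, −0.14 and −0.01 over all genes. Trimmed-mean (TMM) scaling added 0.13 to each log2 ratio of M3cKO PNX over WT PNX and turned the split of all genes there from 579 higher and 1306 lower to 838 and 900. It turned 1030 higher and 637 lower in WT PNX over sham to 851 and 817. Under it the Bax log2 ratio of M3cKO PNX over WT PNX was 0.02 in place of −0.11.

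**Figure D2:**
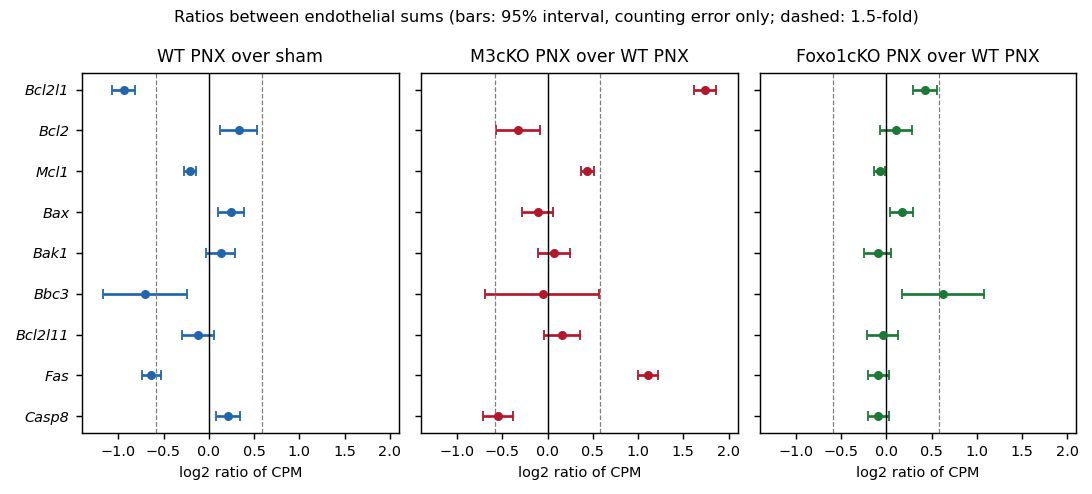
Log2 ratios of CPM between endothelial sums (horizontal axis) for the 9 genes in WT PNX over sham, M3cKO PNX over WT PNX and Foxo1cKO PNX over WT PNX. Points are single ratios with 95% intervals of counting error, and dashed lines mark 1.5-fold; Bcl2l1 lies at −0.94, 1.74 and 0.42.

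Endothelium was split into classes by clustering, with the apoptosis genes left out of the clustering genes. Aerocytes are the large capillary cells of gas exchange marked by Car4 and Ednrb, and general capillary cells are the smaller ones marked by Gpihbp1 and Plvap. One cluster was named arterial from the marker lists, with 3 arterial and 2 general capillary markers among its leading genes. It is kept apart from the other arterial cells here and called Ntrk2 Gja4 capillary after its leading genes Ntrk2 and Gja4. One unnamed cluster is called by Fabp4 and Prnd. Sums of fewer than 50 cells, which were Fabp4 Prnd and lymphatic cells in M3cKO PNX and Fabp4 Prnd and proliferating cells in sham, were left out of counts over classes.

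Bcl2l1 was highest in aerocytes in each library, at 280 CPM in M3cKO PNX, 107 CPM in Foxo1cKO PNX, 85.7 CPM in WT PNX and 139 CPM in sham. In general capillary cells it had 221 CPM in M3cKO PNX, 86.9 CPM in Foxo1cKO PNX, 74.9 CPM in WT PNX and 117 CPM in sham. In WT PNX the order ran upward from Fabp4 Prnd (28.6 CPM) over arterial, proliferating, venous, lymphatic and Ntrk2 Gja4 capillary cells to general capillary cells and aerocytes. All 7 neighbouring intervals in it overlapped. In M3cKO PNX 4 of the 5 neighbouring intervals overlapped, and aerocytes were separated from the class below them.

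M3cKO PNX stood above WT PNX in all 6 classes with enough cells, by 2.25 times in proliferating cells (1.47 to 3.40) to 4.07 times in venous cells (3.12 to 5.32). The ratio was 3.27 in aerocytes (2.71 to 3.95), 2.95 in general capillary cells (2.53 to 3.44), 3.14 in Ntrk2 Gja4 capillary cells (2.21 to 4.44) and 3.56 in arterial cells (2.08 to 5.97). In lymphatic cells, with 38 cells in M3cKO PNX, it was 1.38 with an interval that included 1 (0.603 to 3.10). WT PNX stood below sham in all 6 classes compared, from 0.396 times in arterial cells (0.259 to 0.601) to 0.659 times in lymphatic cells (0.329 to 1.27), the one interval of the 6 that included 1. Foxo1cKO PNX stood above WT PNX in all 8 classes, at least 1.5-fold in arterial cells (1.84 times, 1.25 to 2.74) and Fabp4 Prnd cells (2.26 times, 1.36 to 3.90), and 4 of the 8 intervals lay above 1.

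The classes took different shares of the libraries. General capillary cells made up 62.3% of endothelial cells in M3cKO PNX, 30.3% in Foxo1cKO PNX, 31.8% in WT PNX and 52.0% in sham. Most of them in M3cKO PNX (57.4%) and sham (50.2%) lay in a cluster led by Sox11, and most in Foxo1cKO PNX (68.3%) and WT PNX (61.3%) in one led by Glp1r. Within the Glp1r-led cluster Bcl2l1 had 244 CPM in M3cKO PNX (152 cells), 77.2 CPM in Foxo1cKO PNX, 64.3 CPM in WT PNX and 115 CPM in sham. Within the Sox11-led cluster it had 219 CPM in M3cKO PNX (892 cells), 45.6 CPM in Foxo1cKO PNX (42 cells, 14.8 to 106), 122 CPM in WT PNX (44 cells, 66.8 to 205) and 112 CPM in sham (1220 cells). The WT PNX interval in that cluster, from 14 UMIs, spanned the level of sham and overlapped the interval of Foxo1cKO PNX. Weighting the classes of each library to the shares of WT PNX left log2 ratios of 1.64 for M3cKO PNX over WT PNX, against 1.74 without weights, and −0.77 for WT PNX over sham, against −0.94.

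Fas was highest in M3cKO PNX and second in sham in aerocytes, both capillary classes, arterial cells and venous cells. Its level in M3cKO PNX exceeded that of WT PNX in all 6 classes, from 1.71 times in aerocytes (222 against 130 CPM) to 2.58 times in arterial cells (267 against 103 CPM), and each interval lay above 1. Lymphatic cells held little of it, with 5 UMIs (22.3 CPM) in Foxo1cKO PNX, 2 UMIs (6.46 CPM) in WT PNX and 9 UMIs (22.8 CPM) in sham, the lowest class in these 3 libraries. Casp8 was below WT PNX in all 6 classes of M3cKO PNX, and 4 of the 6 intervals lay below 1.

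Bcl2l11 differed more between classes than between libraries, except in Ntrk2 Gja4 capillary cells and lymphatic cells. Ntrk2 Gja4 capillary cells had 26.3 CPM in M3cKO PNX (7 UMIs) against 59.4 CPM in WT PNX (0.443, 0.172 to 0.955). Lymphatic cells had 22.3 CPM in Foxo1cKO PNX (5 UMIs), 38.8 CPM in WT PNX (12 UMIs) and 45.6 CPM in sham (18 UMIs). There the ratio of Foxo1cKO PNX over WT PNX was 0.575, with an interval that included 1. Among classes with at least 50 cells Bcl2l11 was lowest in aerocytes in each library, at 19.0 CPM in M3cKO PNX, 19.8 CPM in Foxo1cKO PNX, 19.9 CPM in WT PNX and 18.9 CPM in sham. General capillary cells had 49.6 CPM in M3cKO PNX, 53.3 CPM in Foxo1cKO PNX, 52.9 CPM in WT PNX and 58.2 CPM in sham, and these intervals lay above those of aerocytes in each library. The class with the most Bcl2l1 was thus the one with the least Bcl2l11. Mcl1 was highest in venous cells among the named classes with at least 50 cells, at 457 CPM in M3cKO PNX, 356 CPM in Foxo1cKO PNX, 373 CPM in WT PNX and 419 CPM in sham. Its interval in venous cells of M3cKO PNX (410 to 508) overlapped that of general capillary cells (429 to 475), and cells of other clusters in Foxo1cKO PNX had more, at 388 CPM. Within general capillary cells, the cluster led by Atf3 stood above venous cells in each library. It had Mcl1 at 597 CPM in M3cKO PNX, 375 CPM in Foxo1cKO PNX, 433 CPM in WT PNX and 465 CPM in sham. These intervals overlapped those of venous cells except in M3cKO PNX. Bak1 was highest in proliferating cells of the 3 PNX libraries, at 108 CPM in M3cKO PNX, 79.6 CPM in Foxo1cKO PNX and 89.3 CPM in WT PNX.

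**Figure D3:**
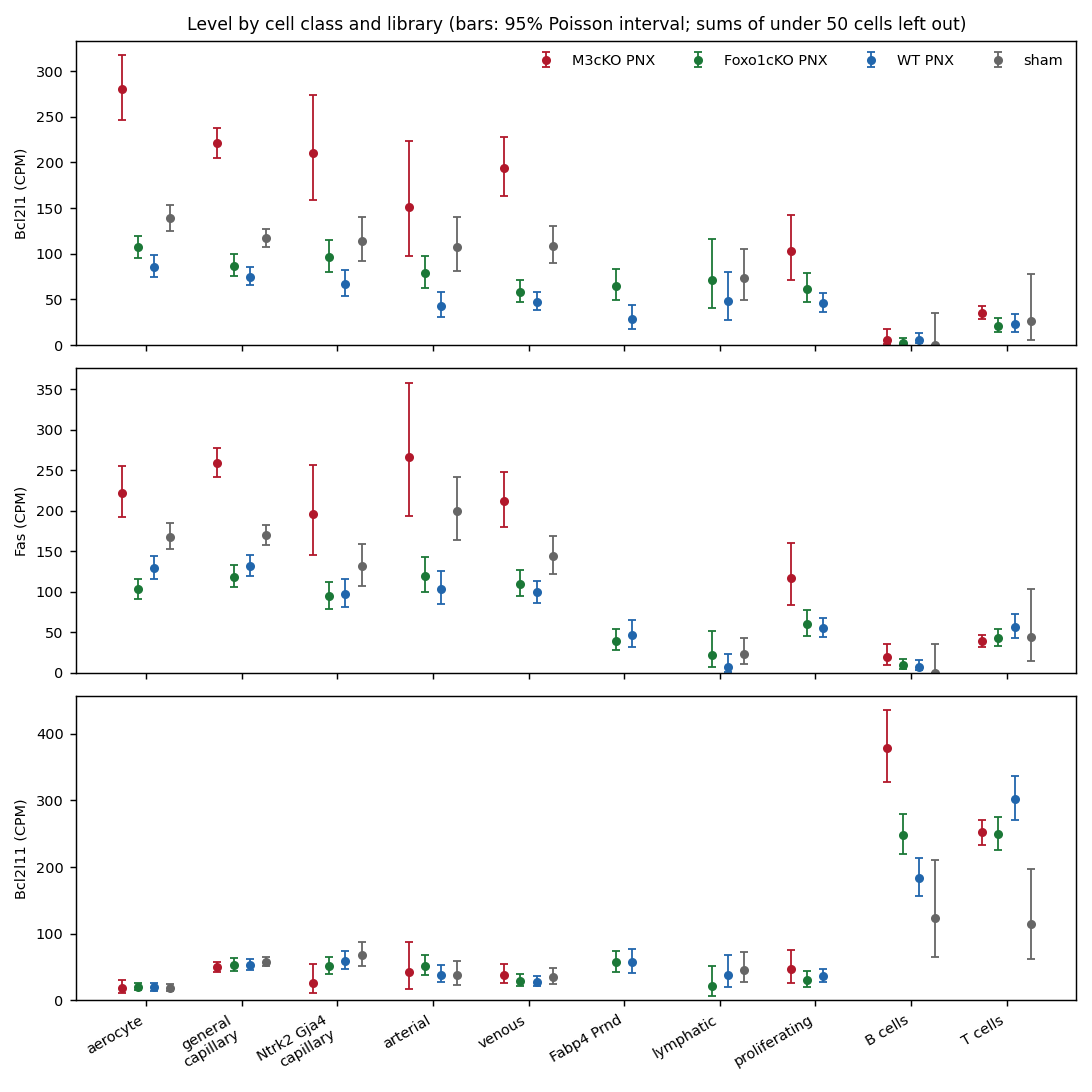
Levels of Bcl2l1, Fas and Bcl2l11 (CPM, vertical axes from 0) in each endothelial class and in B and T cells, with 1 point per library and 95% Poisson intervals. Bcl2l1 in M3cKO PNX lies highest in aerocytes at 280 CPM, and Bcl2l11 in B cells reaches 378 CPM in M3cKO PNX.

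B and T cells that remained after the CD45 depletion gave a contrast, taken as cells of their clusters with fewer than 2 UMIs over the 6 endothelial genes. Bcl2l1 was nearly missing from B cells, with 3 UMIs in M3cKO PNX (238 cells, 5.82 CPM), 3 in Foxo1cKO PNX (506 cells, 2.73 CPM), 5 in WT PNX (481 cells, 5.44 CPM) and 0 in sham, where the limit that 0 UMIs allow, set at 3 counts, is 28.5 CPM over 65 cells. The ratio of M3cKO PNX over WT PNX in them was 1.07 with a wide interval (0.166 to 5.50). All cells of the B cell clusters, those with endothelial UMIs included, had 40.4 CPM in M3cKO PNX (34 UMIs), 18.0 CPM in Foxo1cKO PNX (38 UMIs), 17.2 CPM in WT PNX (34 UMIs) and 22.3 CPM in sham (5 UMIs). T cells had 34.9 CPM in M3cKO PNX, 20.8 CPM in Foxo1cKO PNX, 22.8 CPM in WT PNX and 26.6 CPM in sham. T cells of M3cKO PNX came mostly from a cluster led by Ctla4 (714 of 1066 cells) and those of WT PNX mostly from one led by Lef1 (389 of 493 cells). Within the Ctla4-led cluster Bcl2l1 had 38.8 CPM in M3cKO PNX (78 UMIs) against 40.1 CPM in WT PNX (9 UMIs). The ratio was 0.966 (0.484 to 2.19), an interval that does not include the 3.34 of endothelium. Within the Lef1-led cluster Bcl2l1 had 2.68 CPM in M3cKO PNX (1 UMI) against 13.3 CPM in WT PNX (11 UMIs).

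Bcl2l11 was the opposite case, with far more in lymphocytes than in endothelium. B cells had 378 CPM in M3cKO PNX (327 to 435), 248 CPM in Foxo1cKO PNX (220 to 279), 184 CPM in WT PNX (157 to 214) and 123 CPM in sham (65.7 to 211). The level in M3cKO PNX was 2.06 times that in WT PNX (1.67 to 2.55), where endothelium showed 1.12 (0.972 to 1.28). That endothelial log2 ratio, 0.16, became −0.15 in cells with at most 5% mitochondrial UMIs. In the Lef1-led T cells it was 672 CPM in M3cKO PNX against 370 CPM in WT PNX (1.81 times, 1.53 to 2.15), and in the Ctla4-led T cells 193 against 84.7 CPM (2.28 times, 1.44 to 3.83). Over all T cells the ratio was below 1, at 252 against 302 CPM (0.834, 0.731 to 0.953), beside the different shares of the clusters given above. Bcl2l11 was not particular to lymphocytes. In whole clusters of M3cKO PNX against WT PNX, neutrophils had 455 against 172 CPM (231 and 25 UMIs). Mast cells or basophils had 453 against 104 CPM (247 and 9 UMIs, the latter in 38 cells). Monocytes or macrophages had 295 against 170 CPM, over clusters in different shares. The one led by C1qb held 235 of 564 of these cells in M3cKO PNX and 40 of 176 in WT PNX. Bcl2 was also higher in T cells than in endothelium, with 238 CPM in T cells of M3cKO PNX, 407 CPM in Foxo1cKO PNX, 408 CPM in WT PNX and 151 CPM in sham. Endothelium had 30.0 to 40.7 CPM, and monocytes or macrophages of sham had 159 CPM (16 UMIs).

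Outside endothelium and lymphocytes, Bcl2l1 was counted in whole clusters of the kept cells, without the endothelial rule. Platelet clusters had 344 CPM in M3cKO PNX (35 UMIs), 157 CPM in Foxo1cKO PNX (42 UMIs), 112 CPM in WT PNX (56 UMIs) and 373 CPM in sham (19 UMIs). Neutrophils had 219 CPM in M3cKO PNX (111 UMIs) against 27.5 CPM in WT PNX (4 UMIs). Fibroblasts had 86.6 CPM in M3cKO PNX (63.8 to 115) against 46.7 CPM in WT PNX (34.2 to 62.3). Alveolar type 1 epithelium had 359 CPM in M3cKO PNX (15 UMIs, 14 cells) against 81.1 CPM in WT PNX (75 UMIs, 193 cells). Monocytes or macrophages had 31.3 CPM in M3cKO PNX (25.3 to 38.3) against 25.2 CPM in WT PNX (16.3 to 37.1), with overlapping intervals. The endothelial gene Cdh5 stood at 1544 CPM in the platelet cluster and 955 CPM in the fibroblast cluster over all libraries, beside 1141 CPM in the venous one, and its part in these Bcl2l1 levels was not tested. In the neutrophil cluster Cdh5 stood at 211 CPM, and in the alveolar type 1 cluster at 1792 CPM. Leaving out the cells that met the endothelial rule but lay in clusters of other cell types gave a log2 ratio of 1.77 for M3cKO PNX over WT PNX.

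The wider pathway was read from lists chosen with earlier results of these data known, against the same background shares. Over all genes, 6.37% were higher and 14.4% lower in M3cKO PNX against WT PNX. The shares were 11.3% and 6.98% in WT PNX against sham, and 1.09% and 1.39% in Foxo1cKO PNX against WT PNX. Of 8 listed anti-apoptotic genes, 6 were measured in M3cKO PNX against WT PNX, and 3 were higher and 0 lower. Besides Bcl2l1 these were Bcl2a1b (22 against 2.85 CPM) and Bcl2a1d (10.8 against 0.657 CPM), near-identical copies known from leukocytes, whose counts are uncertain because reads can be shared between them. Summed immune marker genes stood at 583 CPM in M3cKO PNX, 305 CPM in Foxo1cKO PNX, 355 CPM in WT PNX and 722 CPM in sham, with 1 of 8 at 0 in each, and their part in the Bcl2a1 counts was not tested. Bcl2l2, another anti-apoptotic gene, had 33.7 CPM in M3cKO PNX against 37.6 CPM in WT PNX. Of 10 BH3-only genes 6 were measured, and 1 was higher, Pmaip1, which encodes NOXA (20.2 against 13.2 CPM).

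Of 9 death receptors and ligands 5 were measured in M3cKO PNX against WT PNX. Fas and Tnfrsf1b, a TNF receptor, were higher (21.3 against 12.3 CPM for Tnfrsf1b), and Tnfsf10, which encodes the death ligand TRAIL, was lower (200 against 339 CPM). Among apoptosome and caspase genes, the caspase gene Casp2 was lower (13.2 against 23.2 CPM). Among 4 inhibitors of apoptosis proteins Birc2 was lower (14.3 against 22 CPM). Necroptosis and pyroptosis genes were split, with Ripk3 (54.5 against 35.8 CPM) and Zbp1 (13.9 against 7.96 CPM) higher and Casp1 (7.39 against 12.3 CPM) lower of 6. Of 11 measured p53 targets 1 was higher, the cell cycle inhibitor gene Cdkn1a (837 against 475 CPM), and 1 lower, Tigar (12.8 against 19.9 CPM). Of 15 survival signalling genes 5 were higher and 2 lower, beside 6.37% and 14.4% over all genes. Among the higher ones were Gadd45b (37.3 against 14.7 CPM), Foxo3 (46.4 against 25.6 CPM) and the kinase gene Pim1 (251 against 140 CPM).

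WT PNX against sham shares its WT PNX library with the comparison above, so a gene such as Cdkn1a, at 475 CPM in WT PNX against 795 CPM in sham, is lower here and higher in M3cKO PNX against WT PNX. Cycs, the cytochrome c gene that feeds the apoptosome, had 127 CPM in WT PNX against 75.6 CPM in sham, while the caspase gene Casp6 had 22.1 against 33.6 CPM. Xiap, an inhibitor of caspases, had 212 CPM in WT PNX against 109 CPM in sham and was the 1 of 4 in its list. Besides Fas, the TNF receptor gene Tnfrsf1a was lower among 5 death receptors and ligands (182 against 275 CPM). The inflammasome sensor gene Nlrp3 had 3.65 CPM in WT PNX against 28.1 CPM in sham, and Zbp1 was also counted lower. Summed over 12 proliferation genes, a separate list, WT PNX had 1860 CPM against 393 CPM in sham.

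In Foxo1cKO PNX against WT PNX, the lists held 2 calls in all, where 1.09% of all genes were higher and 1.39% lower. Zbp1 was higher, at 13.7 CPM against 7.96 CPM, and Foxo1, which the survival signalling list contains, was lower. No anti-apoptotic (4 measured), pore-forming (2), BH3-only (6), death receptor or ligand (5) or caspase gene that reached 10 CPM passed 1.5-fold. With such small shares over all genes, the absence of calls in short lists says little about these genes.

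**Figure D4:**
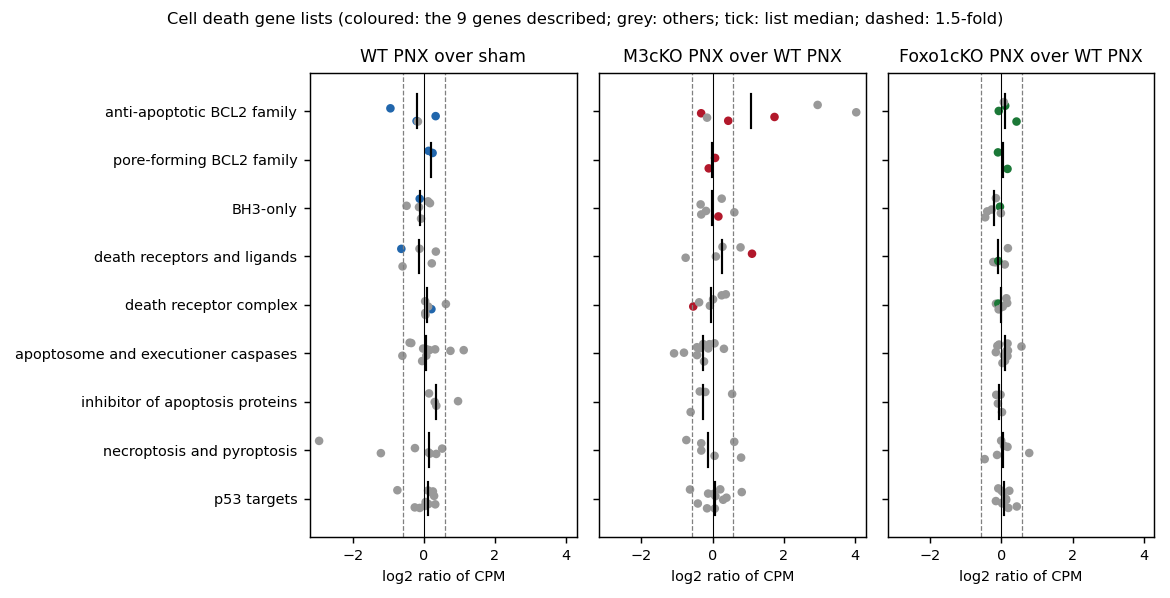
Log2 ratios of CPM (horizontal axis) for the measured genes of 9 cell death lists in the 3 comparisons, with the list median as a black tick and 1.5-fold as dashed lines. Coloured points are the 8 members that reach 10 CPM and grey points the other genes; the anti-apoptotic list spreads widest in M3cKO PNX over WT PNX, and of the genes drawn Zbp1 alone passes 1.5-fold in Foxo1cKO PNX over WT PNX.

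Heat shock transcripts moved with Bcl2l1 and Fas across M3cKO PNX, WT PNX and sham. Summed over 8 genes they stood at 7042 CPM in M3cKO PNX, 2053 CPM in Foxo1cKO PNX, 2676 CPM in WT PNX and 3869 CPM in sham, and Hspa1b alone at 1356 CPM in M3cKO PNX against 138 CPM in WT PNX. Endothelial cells without a UMI of Hspa1a or Hspa1b made up 48%, 76.1%, 74.9% and 62.4% of cells in M3cKO PNX, Foxo1cKO PNX, WT PNX and sham. In them Bcl2l1 had 195 CPM in M3cKO PNX, 83.5 CPM in Foxo1cKO PNX, 60.5 CPM in WT PNX and 111 CPM in sham, and Fas 206 CPM, 93.8 CPM, 96.9 CPM and 154 CPM. The order of the libraries for Bcl2l1 was the same in these cells.

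The sex-linked transcripts allowed the comparisons to be repeated within male-type cells, those that held a Y-linked UMI but lacked Xist. There Bcl2l1 had 202 CPM in M3cKO PNX, 71.4 CPM in Foxo1cKO PNX, 59.3 CPM in WT PNX and 112 CPM in sham, the same order as in all endothelial cells. Fas had 207 CPM in M3cKO PNX, 85.9 CPM in Foxo1cKO PNX, 73.2 CPM in WT PNX and 158 CPM in sham. In female-type cells, those that held Xist but lacked Y-linked UMIs, Bcl2l1 had 84.8 CPM in Foxo1cKO PNX against 54.1 CPM in WT PNX, a ratio of 1.57 (1.30 to 1.90), beside 1.2 (0.986 to 1.47) in male-type cells. Foxo1 itself was reduced unequally, to 37.0 CPM in female-type cells of Foxo1cKO PNX against 218 CPM in those of WT PNX, a ratio of 0.170 (0.140 to 0.204), and to 127 CPM in male-type cells of Foxo1cKO PNX against 212 CPM, a ratio of 0.598 (0.524 to 0.681). Bcl2l11 had a ratio of 0.853 in female-type cells (0.677 to 1.07) and 0.851 in male-type cells (0.637 to 1.13), with both intervals including 1.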

How the data were processed

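Per the labels, reads of the 4 libraries were processed with Cell Ranger 2.1.1 on mm10. R 3.4.4 is named in the submitters' processing notes, and software version 3.0.0 stands in the file headers. The values are whole-number UMI counts, not normalized, as the authors deposited them. The members and gene lists were chosen with earlier results of these data known.

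Clusters came from scanpy 1.11.5 over all libraries together (2000 variable genes without the apoptosis genes, 40 principal components, 20 neighbours, Leiden resolution 1, 29 clusters, no integration), and were named from marker lists where at least 3 markers led. Doublets were kept and removed as an alternative, at 0.8% per 1000 barcodes. UMIs were summed per library and class and given as CPM with exact Poisson intervals, and ratios with exact conditional binomial intervals, both at 95%. With both counts at 3 or fewer no gene was called. All 9 members, up to 3 genes per list and comparison with the largest log2 ratio among those called, and Foxo1 were named. Bcl2l2 was not called and was chosen after its values were seen, as were the non-endothelial clusters described. A result of the apoptosome and caspase list is not reported here, and no count is given for that list. TMM factors came from edgeR 4.0.16. The endothelial sums behind the values held between 6492399 and 13691550 UMIs. The fold and call steps were tested on simulated data. Alternatives were other cell rules, mitochondrial limits, scalings, CPM minimums, class weights, thinning to 2000 UMIs and cell subsets.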

Additional observations from a re-analysis of the deposited data

Results flagged for a closer look

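Mcl1 was flagged because its difference between M3cKO PNX and WT PNX ran in opposite directions in 2 endothelial classes. Its log2 ratio was 0.73 in proliferating cells (147 UMIs, 431 CPM in M3cKO PNX against 260 CPM in WT PNX) and −0.70 in lymphatic cells (33 UMIs, 169 CPM in M3cKO PNX against 275 CPM in WT PNX). Each class is 1 sum per library, the lymphatic sum of M3cKO PNX rests on 38 cells, and the difference between the classes was not tested.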

How the results depend on the processing

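Over 14 alternatives and 9 members, 102 of 126 log2 ratios of WT PNX over sham, 115 of M3cKO PNX over WT PNX and 118 of Foxo1cKO PNX over WT PNX stayed within counting error of the reported value, 24, 11 and 8 moved beyond it, and 0 changed sign past 1.5-fold. The Bcl2l1 log2 ratio ranged from −1.01 to −0.77, from 1.64 to 1.87 and from 0.27 to 0.46 in the same order. It moved to −0.77 with classes weighted to WT PNX and −0.80 with the mean of CPM over cells (WT PNX over sham), to 1.87 with TMM scaling (M3cKO PNX over WT PNX), and to 0.27 in male-type cells, with Y-linked UMIs but no Xist (Foxo1cKO PNX over WT PNX). Members lower in WT PNX than in sham numbered 1 in place of 2 with at most 5% mitochondrial UMIs, weighted classes, no proliferating cluster and the mean of CPM, where Fas dropped out, and with the mean of CPM 1 was higher, Bcl2. Members lower in M3cKO PNX than in WT PNX numbered 1, Casp8, with endothelial clusters in place of the marker rule, the mean of CPM, thinning to 2000 UMIs, and without cells holding an Hspa1a or Hspa1b UMI. Members higher in Foxo1cKO PNX than in WT PNX numbered 1, Bbc3, with at most 5% mitochondrial UMIs and with thinning. The causes were not tested. Genes called higher and lower over all genes numbered 291 and 277, 282 and 323, and 26 and 28 at a minimum of 50 CPM, against 1030 and 637, 579 and 1306, and 99 and 126 at 10 CPM, and 3085 and 1619, 1627 and 3316, and 1095 and 1238 without a minimum. Leaving out clusters of other cell types, the cluster led by Atf3 and heat shock genes, and Hspa1 cells were chosen after seeing the data. No paired analysis was possible because each group is 1 library. Depth limits Bbc3, with 33 to 100 UMIs, and the small classes; thinning left out 1197, 1275, 1147 and 2654 cells of M3cKO PNX, Foxo1cKO PNX, WT PNX and sham.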

Other observations

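Cells above the mitochondrial limit were not clustered. Those with 10 to 20% mitochondrial UMIs that met the rest of the endothelial rule held Bcl2l11 at 101 UMIs per 1000000 non-mitochondrial UMIs in M3cKO PNX (83.0 to 121, 486 cells), 52.1 in Foxo1cKO PNX (41.3 to 65.0), 58.2 in WT PNX (48 to 69.8) and 50.4 in sham (39.3 to 63.7). Cells at or under 10% held 51.8, 45.1, 46.4 and 50.2 in the same libraries, so that Bcl2l11 differed between these cells in M3cKO PNX by more than counting error. Fas went the other way in each library, with 182 against 230 in M3cKO PNX, 71.9 against 101 in Foxo1cKO PNX, 81.9 against 107 in WT PNX and 115 against 166 in sham. Bcl2, which T cells also held at high levels, had 60.4 against 32.3 in M3cKO PNX and 40.9 against 43.6 in Foxo1cKO PNX. It had 53.6 against 40.5 in WT PNX and 40.3 against 32.1 in sham. Under the limit, cells of M3cKO PNX that met the endothelial rule but lay in other clusters held Bcl2l11 at 134 CPM. The part of other cell types in these values was not tested.

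Within WT PNX, Fas had 121 CPM in female-type cells (Xist but no Y-linked UMIs) against 73.2 CPM in male-type cells (Y-linked UMIs but no Xist), a ratio of 1.65 (1.42 to 1.93). In Foxo1cKO PNX the same ratio was 1.09 (0.912 to 1.29), at 93.3 against 85.9 CPM. Median depth of these cells was 2683 against 4141 UMIs in WT PNX and 2987 against 3401 in Foxo1cKO PNX, and its part was not tested.

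Over 28 sums of an endothelial class in a library, and among 7277 genes, the 5 genes most like Bcl2l1 by Pearson correlation of log2(CPM + 5) were Sema3f (0.888), Zbtb7a (0.846), Acadl (0.840), Slc12a4 (0.839) and Hspa1b (0.835). Among the members Fas was most like it (0.68) and Casp8 least (−0.37). The sums share libraries, so these values describe the 28 points only.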
